A study of Caenorhabditis elegans with 12 samples.

Results

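The furrow cuticle collagens are the 6 genes *dpy-2*, *dpy-3*, *dpy-7*, *dpy-8*, *dpy-9* and *dpy-10* of the nematode *Caenorhabditis elegans*. They were chosen by name from a table of 20212 genes, with earlier results of these data known. All 6 passed the filter on low counts that left 15048 genes for testing. Poly(A) RNA of whole larvae, collected at the L4 stage by the study's methods, was sequenced in 4 groups of 3 biological replicates. Wild-type animals (strain N2) and animals carrying the *mir-71(n4115)* deletion (strain MT12993), which lack the microRNA miR-71 in every cell, were each given water or sodium azide. Azide blocks complex IV of the mitochondrial respiratory chain, and its dose in these cultures is not given with the sequencing methods. The design asks what the deletion changes on each treatment, what azide changes in each genotype, and whether the azide effect differs between genotypes.

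The cuticle of *C. elegans* is a collagen-rich extracellular matrix that the epidermis secretes anew before each molt. Its surface carries circumferential annular furrows, and loss of any of these 6 collagens removes the furrows and leaves a short, stout (Dumpy) animal. Cuticle collagen genes are transcribed in waves within each molting cycle, and the furrow collagens belong to an early wave, ahead of collagens such as that of *dpy-13*. Animals without furrows are known to switch on antimicrobial, osmotic and detoxification genes in the epidermis.

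In wild-type larvae, the transcripts of all 6 furrow collagens were 5.67-fold to 7.45-fold lower on azide than on water. In larvae with the *mir-71* deletion, none of the 6 passed the test between azide and water, and on azide all 6 stood 5.20-fold to 5.88-fold above azide-treated wild type. On water, none of the 6 passed the test between the genotypes. For each gene the azide effects of the genotypes differed in a test of that difference. Along the 12 libraries the 6 transcripts moved almost as one. Wild type on azide also had the highest transcripts of adult-stage collagens and yolk proteins of the 4 groups. The part of developmental stage in these results was not tested.

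Total counts per library ranged from 16828108 to 23937993, and the lowest count of any of the 6 genes in any library was 440, in wild type on azide. In that group the SD between replicates was 7.07% of the mean for *dpy-10* to 17.7% for *dpy-8*. The part of counting error in that spread was not computed. Levels are given as CPM (library-scaled counts) after TMM scaling, which corrects for library size and composition. As a check of the labels, *ppfr-1*, the gene whose intron holds *mir-71*, had 103 ± 3.72 CPM on water and 105 ± 2.3 on azide (SD, n = 3 each) in wild type. The deletion had 441 ± 21.5 and 629 ± 145 CPM (SD, n = 3 each). Replicate 1 of the deletion on water was low in all 6 furrow collagens, and replicate 3 of the azide-treated deletion was far from its partners on the second principal component of all genes, at -78.6 against -34.5 and -42.2. The medians of the 6 are given with and without these libraries, as are the counts of other lists that changed without them. On the first component, which holds 56.5% of the variance, replicate 1 of the azide-treated deletion stood apart, at 23.3 against -10.1 and -4.91. It also had the lowest total count and the highest TMM factor, 1.19. The medians of the 6 without it are given for the comparisons that use it.

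The 6 genes lie on 3 chromosomes of build WBcel235. *dpy-2* (II, 6714294 to 6715792, plus strand) and *dpy-10* (II, from 6710156, minus strand) are neighbours that are transcribed away from each other, with 2064 bases between their annotated ends and 1362 between their counted spans. *dpy-3* (2144655 to 2145645), *dpy-7* (7536653 to 7537788) and *dpy-8* (5148914 to 5150432) lie on the minus strand of the X chromosome, and *dpy-9* (257503 to 259203) on the minus strand of chromosome IV. The annotation gives *dpy-3* and *dpy-7* 2 exons, *dpy-8* and *dpy-9* 4, and *dpy-2* and *dpy-10* 5. Near its 3′ end *dpy-8* overlaps *C31H2.14*, a gene on the opposite strand that had 8 to 79 counts per library against 661 to 7361 for *dpy-8*. The counted span of *dpy-10* ends at 6712931, where the annotation ends the same-strand gene *T14B4.19*, while it ends *dpy-10* itself at 6712227. Reads of these genes cannot be told apart in the *dpy-10* count.

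*dpy-7* encodes the furrow collagen whose protein is commonly used to mark the furrows. Its transcript stood at 216, 298 and 196 CPM in wild type on water and at 26.6, 33.9 and 34.7 CPM once azide was added. Deletion larvae had 87.0, 185 and 222 CPM on water and 189, 181 and 144 CPM on azide. The 3 wild-type azide libraries lay below all 9 others, and the deletion on azide lay inside the range of the deletion on water.

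*dpy-8* had 216, 365 and 257 CPM in wild type on water and 33.8, 48.2 and 44.5 CPM on azide. In the deletion its level was 107, 168 and 281 CPM on water and 229.8, 245 and 183 CPM on azide. Again the wild-type azide libraries lay below the rest. *dpy-3* had 140.5, 267 and 156 CPM in wild type on water and 24.2, 29.8 and 27.6 CPM on azide. In the deletion its level was 65.6, 99.9 and 206 CPM on water and 159, 178 and 143 CPM on azide. The spread of *dpy-3* within the deletion on water, from its lowest to its highest library, was the widest relative to its level of the 3 X-linked genes described.

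The neighbours on chromosome II behaved alike. *dpy-2* had 149, 214 and 151 CPM in wild type on water and 22.5, 28.1 and 29.3 CPM on azide. In the deletion it had 70.7, 132 and 171 CPM on water and 161, 148 and 111 CPM on azide. For *dpy-2* the deletion on azide overlapped both groups on water and stayed above wild type on azide. *dpy-10*, the collagen gene widely used as a co-conversion marker in genome editing, had 171, 234 and 165 CPM in wild type on water and 30.7, 35.1 and 34.6 CPM on azide. In the deletion it had 67.2, 142 and 183 CPM on water and 221, 200.5 and 159 CPM on azide. *dpy-9*, on chromosome IV, had 184, 233 and 177 CPM in wild type on water and 25.4, 31.8 and 30.6 CPM on azide. In the deletion it had 76.9, 152 and 183 CPM on water and 170.1, 165 and 135 CPM on azide. For both genes, too, the wild-type azide libraries were the lowest of the 12.

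**Figure D1:**
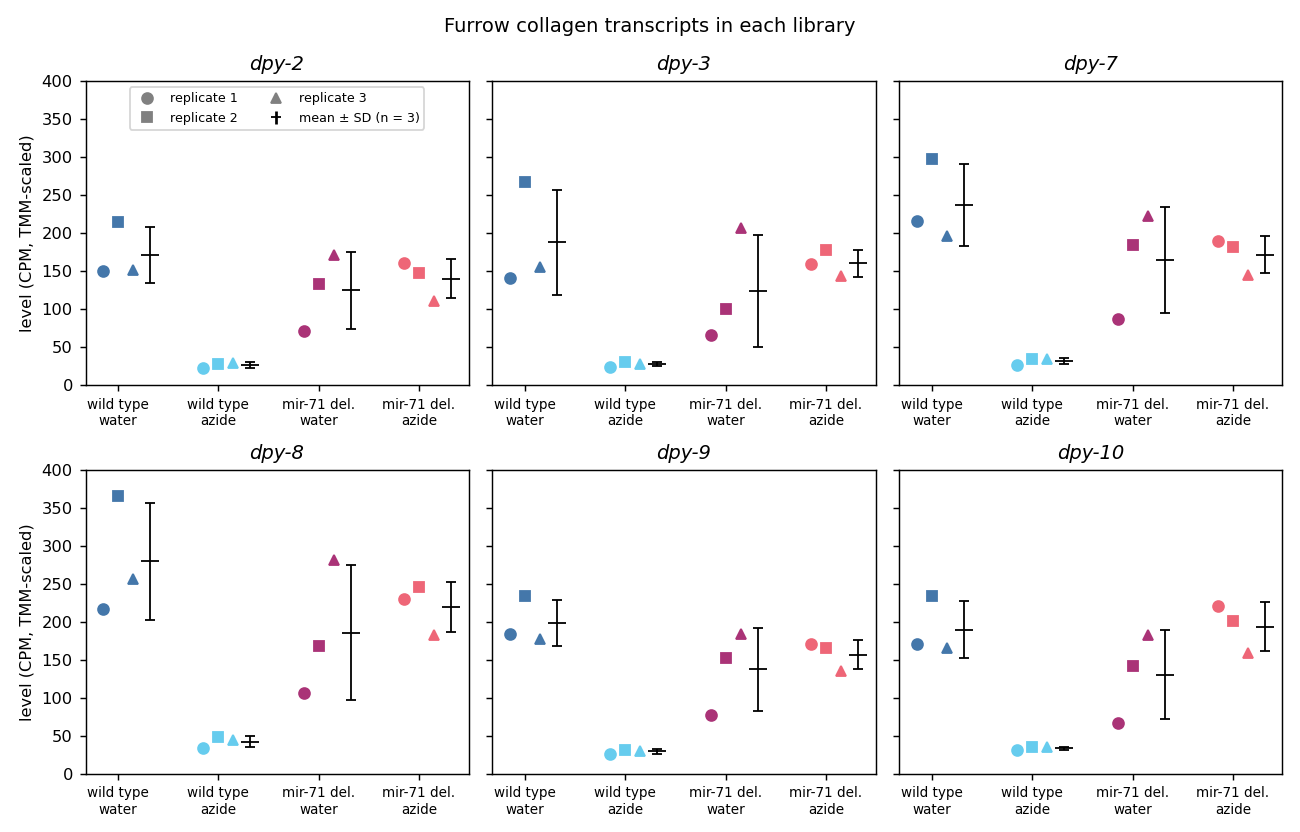
Level of each furrow collagen transcript (CPM after TMM scaling, linear axis) in the 12 libraries, by group, with replicates as symbols and the mean ± SD (n = 3) in black. In all 6 panels the wild-type azide libraries, between 22.5 and 48.2 CPM, lie below every other library, and replicate 1 of the deletion on water is the lowest of its group. The share of all genes in which the wild-type azide libraries are lowest was not counted.

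In wild-type larvae, *dpy-7* showed the largest fall on azide, by 2.90 on the log2 scale (SE 0.318, adjusted p = 3.81e-05 from edgeR's quasi-likelihood test). *dpy-10* showed the smallest, by 2.50 (SE 0.314, edgeR adjusted p = 9.07e-05). The falls of *dpy-2*, *dpy-3*, *dpy-8* and *dpy-9* lay between these, at log2 fold changes of -2.69, -2.79, -2.73 and -2.76, with edgeR adjusted p from 1.55e-05 to 0.000256. All 6 of 6 genes were called lower, where 27.1% of all genes tested were called lower, and in all 6 the groups did not overlap, where 34.2% of all genes had lower, non-overlapping groups. The median log2 fold change of the 6 was -2.74, beside -0.05 over all genes tested, and their changes ranked 242 to 461 from the lowest of 15048. In whole animals, fewer epidermal cells and less RNA per cell cannot be told apart.

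In larvae with the *mir-71* deletion, the log2 fold changes on azide were small: 0.17 for *dpy-2*, 0.37 for *dpy-3*, 0.06 for *dpy-7*, 0.24 for *dpy-8*, 0.19 for *dpy-9* and 0.57 for *dpy-10*. By edgeR, 0 of the 6 were called, with adjusted p from 0.188 to 0.901; 0 had an unadjusted p under 0.05, and DESeq2 called 0. Of all genes tested, 12.3% were called higher and 11.6% lower in this comparison. The 95% interval for *dpy-7* ran from -0.59 to 0.71 and that for *dpy-10* from -0.09 to 1.22, so a fall of the size seen in wild type lies outside both. Without replicate 1 of the deletion on water the median of the 6 turned from 0.21 to -0.070. Without replicate 3 of that group it was 0.57 and *dpy-3* was called higher (log2 fold change 0.95, edgeR adjusted p = 0.0327). With replicate 3 of the azide-treated deletion left out the median was 0.31, and without its replicate 1 it was 0.14. Over all genes, the 1856 higher and 1744 lower calls became 1047 and 1126 without replicate 1 of the deletion on water and 1204 and 1216 without its replicate 2. They became 1220 and 1355 without replicate 1 of the azide-treated deletion, and 2407 and 2268 without its replicate 3.

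Between genotypes on azide, *dpy-3* showed the largest difference, with a log2 fold change of 2.56 of deletion over wild type (SE 0.399, edgeR adjusted p = 0.00111). *dpy-8* showed the smallest, at 2.38 (SE 0.336, edgeR adjusted p = 0.000555). The log2 fold changes of *dpy-2*, *dpy-7*, *dpy-9* and *dpy-10* were 2.39, 2.44, 2.42 and 2.53, with edgeR adjusted p from 0.000107 to 0.000295. All 6 were called higher, where 20.1% of all genes tested were called higher and 18.7% lower. The groups of all 6 did not overlap, where 24.4% of all genes had higher, non-overlapping groups. The median was 2.43 beside 0.04 over all genes, and 2.51 with replicate 3 of the azide-treated deletion left out. Without replicate 1 of that group it was 2.33. The wild-type azide libraries are shared by this comparison and the one of azide against water in wild type, so the 2 are not independent.

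On water the log2 fold changes of deletion over wild type lay between -0.60 for *dpy-3* and -0.46 for *dpy-2*. By edgeR, 0 of the 6 were called (adjusted p from 0.387 to 0.529); 0 had an unadjusted p under 0.05, and DESeq2 called 0. Few genes were called by edgeR in this comparison, 0.744% of all genes higher and 0.758% lower, while DESeq2 called 356 higher and 312 lower. The interval for *dpy-9* ran from -1.09 to 0.03 and that for *dpy-3* from -1.43 to 0.23. The 112 higher and 114 lower calls of edgeR ranged from 37 to 373 and from 27 to 362 when single libraries were left out. Both were highest without replicate 3 of the azide-treated deletion. The lowest came without replicate 3 of wild type on water (higher calls) and replicate 1 of the deletion on water (lower calls). The median of the 6, -0.53, was -0.23 without replicate 1 and -0.83 without replicate 3 of the deletion on water. It was -0.30 with wild-type water replicate 2 left out.

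The azide effect in the deletion exceeded that in wild type by 2.85 to 3.16 on the log2 scale, the lowest being that of *dpy-2* (SE 0.408, edgeR adjusted p = 0.00203) and the highest that of *dpy-3* (SE 0.543, edgeR adjusted p = 0.00668). *dpy-9* had the smallest adjusted p (difference 2.95, SE 0.37, edgeR adjusted p = 0.000897). All 6 were called higher in this test of the difference, where 6.67% of all genes tested were called higher and 3.8% lower. They ranked 85 to 147 from the highest of 15048, and their median was 2.96 beside 0.06 over all genes. The median was 2.68 without replicate 1 of the deletion on water and 3.03 with replicate 3 of the azide-treated deletion left out. It was 2.87 without replicate 1 of the azide-treated deletion. Over all genes the 1003 higher and 572 lower calls ranged from 629 to 1608 and from 186 to 1616 when single libraries were left out, the extremes being without wild-type azide replicate 2, deletion azide replicate 3, wild-type water replicate 3 and deletion azide replicate 1.

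**Figure D2:**
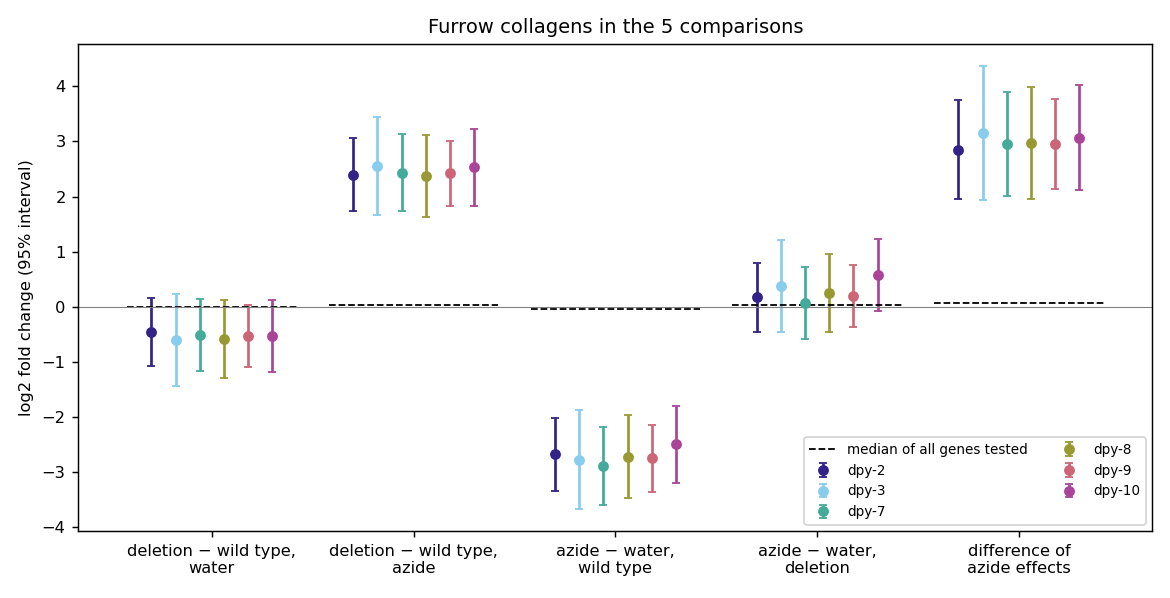
Log2 fold changes of the 6 genes in the 5 comparisons, as points with 95% intervals derived from edgeR's F statistics, and the median of all genes tested as a dashed line. The intervals lie wholly above 0 between genotypes on azide and for the difference of the azide effects, wholly below 0 for azide in wild type, and include 0 in the other 2 comparisons.

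The 6 transcripts rose and fell together in single libraries as well as between groups. Over the 12 libraries the 15 pairs had Pearson's r of log2 CPM between 0.978 and 0.998, and the deviations from the group means, within groups, still had r between 0.872 and 0.993. These values describe 12 libraries that share group differences and the scaling of each library. The summed level of the 6 was 1077, 1611 and 1101 CPM in wild type on water and 163, 207 and 201 CPM on azide. In the deletion it was 474, 880 and 1246 CPM on water and 1130, 1118 and 875 CPM on azide. The deletion on water thus spread 2.63-fold from its lowest to its highest library, while 11 other collagens that shape the body summed to 20858, 19325 and 17605 CPM in the same libraries, in the opposite order. Pooled over groups, the SD of log2 CPM between replicates was 0.37 for *dpy-9* to 0.50 for *dpy-3*, beside a median of 0.19 over 10088 genes with a mean of at least 5 CPM. By group, the 6 had SDs of 0.65 to 0.84 in the deletion on water (median of those genes 0.16) and 0.16 to 0.28 on azide (0.21). In wild type they had 0.21 to 0.50 on water (0.13) and 0.10 to 0.27 on azide (0.10).

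Per length, as the authors' FPKM (fragments scaled to gene size and library total), the 6 genes stood close to each other. In wild type on water *dpy-7* was at 230.3 ± 53.5 FPKM (SD, n = 3), *dpy-9* at 195 ± 30.8, *dpy-3* at 193 ± 71.4 and *dpy-8* at 192 ± 53.2. *dpy-2* followed at 139.9 ± 30.6 and *dpy-10* at 128 ± 26.0 FPKM (SD, n = 3 in each). Neighbours in this order differed by less than the larger of their SDs. In wild type on azide the same genes lay between 22.5 ± 3.35 FPKM for *dpy-2* and 32.0 ± 4.88 for *dpy-7* (SD, n = 3 in each), and in the deletion on azide between 136 ± 33.7 for *dpy-2* and 199 ± 39.9 for *dpy-7*.

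The make-up of the summed FPKM shifted slightly with azide. *dpy-10* made up 11.2% to 12.7% of it in the 6 libraries on water and 13.5% to 15.6% in the 6 on azide. *dpy-7* went the other way, from 20.3% to 24.0% on water to 18.7% to 19.9% on azide. For these genes the water and azide libraries did not overlap, in either genotype. The shares of *dpy-2*, *dpy-3*, *dpy-8* and *dpy-9* overlapped between treatments. These shares of a fixed sum depend on each other and were not tested. The *dpy-10* count may include reads of *T14B4.19*, and their part in its share was not tested.

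**Figure D3:**
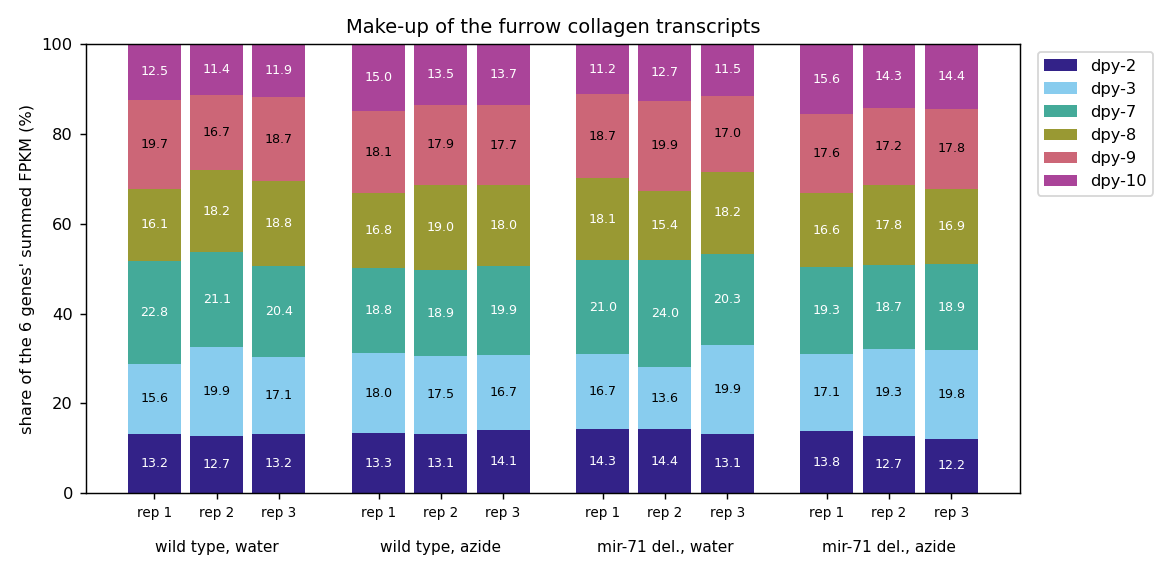
Share of each gene in the summed FPKM of the 6 furrow collagens (percent, stacked to 100) for each library, in 4 groups of 3 replicates. *dpy-10* takes 13.5% to 15.6% on azide against 11.2% to 12.7% on water, and *dpy-7* the reverse, in both genotypes. The *dpy-10* count may include reads of the overlapping gene *T14B4.19*.

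Other collagens whose loss changes body shape fell on azide in both genotypes. Of 11 such genes, edgeR called 9 lower and 1 higher for azide in wild type (median -2.78), where 27.1% of all genes were lower and 27.5% higher. The largest falls were those of *lon-3* (log2 fold change -3.46, edgeR adjusted p = 7.52e-06), *rol-8* (-3.05, edgeR adjusted p = 1.39e-07) and *sqt-1* (-2.95, edgeR adjusted p = 6.96e-08). In the deletion, 9 were again lower and 1 higher (median -1.25), with falls of *lon-3* (-1.57, edgeR adjusted p = 0.00302), *sqt-1* (-1.40, edgeR adjusted p = 6.85e-05) and *dpy-5* (-1.34, edgeR adjusted p = 0.00124). These counts were 9 and 1 in the deletion also without replicate 1 of the group on water or replicate 3 of the group on azide. For azide in the deletion, 11.6% of all genes were called lower and 12.3% higher. None of the 6 furrow genes was called in that comparison. Whether the sets differ in their azide effect was not tested.

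*dpy-17* rose on azide in both genotypes, from 2.9 ± 0.471 to 18.6 ± 2.09 CPM in wild type and from 2.54 ± 0.788 to 31.6 ± 2.64 CPM in the deletion (SD, n = 3 in each). Its log2 fold changes were 2.68 (edgeR adjusted p = 4.98e-07) and 3.65 (edgeR adjusted p = 1.25e-07). This low-level collagen went against the furrow set in wild type. On azide, 10 of the 11 were higher in the deletion, led by *lon-3* (1.84, edgeR adjusted p = 0.000849), *rol-6* (1.63, edgeR adjusted p = 3.42e-06) and *rol-8* (1.59, edgeR adjusted p = 3.85e-05), and *dpy-14* was lower (-3.30, edgeR adjusted p = 0.00237) at 0.132 to 3.8 CPM in the 6 libraries. Among all genes, 20.1% were called higher and 18.7% lower between genotypes on azide.

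By summed FPKM, the furrow set was 4.53% to 6.26% of the other body-shape set in wild type on water and 4.13% to 5.46% on azide. In the deletion it was 1.88% to 5.88% on water and 9.10% to 16.7% on azide. The azide-treated deletion thus lay above all 9 other libraries in this ratio, and in wild type the ranges of the treatments overlapped.

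**Figure D4:**
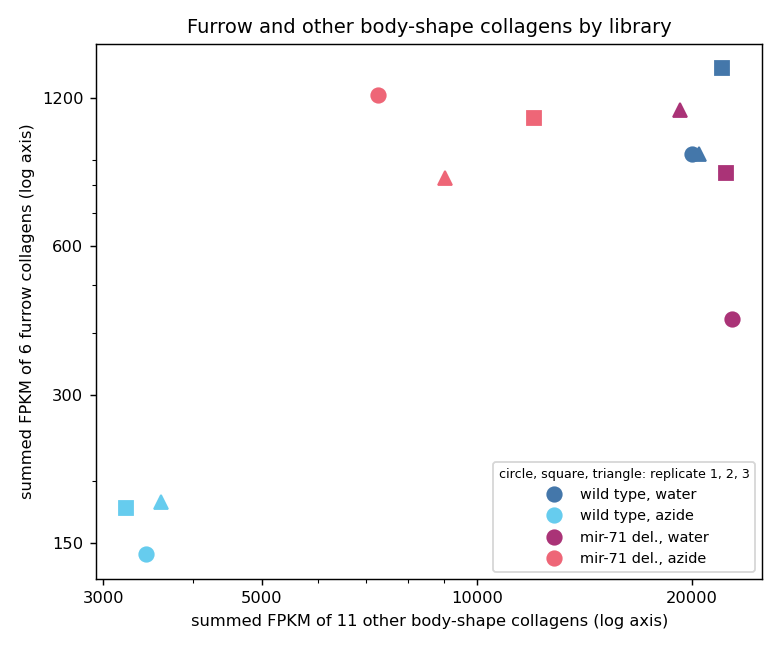
Summed FPKM of the 6 furrow collagens (vertical, log axis) against that of 11 other body-shape collagens (horizontal, log axis), 1 point per library, with groups as colours and replicates as symbols. Wild type on azide is low on both axes, and the deletion on azide, at 9.10% to 16.7% of the other set, has a higher ratio than the other libraries.

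Collagens of 2 other cuticle layers or stages were also examined. Whether the strut collagens differ in course from the furrow set was not tested. The strut collagens *bli-1*, *bli-2* and *bli-6*, of the adult cuticle's middle layer, were all lower on azide in wild type, with log2 fold changes of -3.45, -3.28 and -2.19 (edgeR adjusted p from 0.00236 to 0.0358, and *bli-6* kept its call under 8 of 21 alternatives). There, 27.1% of all genes were called lower. In the deletion none of the 3 passed edgeR's test, although 2 had an unadjusted p under 0.05 and DESeq2 called 2 lower. Their summed level in the deletion on azide was 1245, 2214 and 140.3 CPM, the last in replicate 3, while the furrow set of that library was at 875 CPM. *bli-1* was called higher in the deletion on azide (1.94, edgeR adjusted p = 0.0423), which held under 5 of 21 alternatives, where 20.1% of all genes were called higher. With replicate 3 of the azide-treated deletion left out, edgeR called all 3 lower on azide in the deletion, 2 of 3 higher between genotypes on azide, and the difference of azide effects for 2. Without replicate 1 of the deletion on water 0 of 3 were called between genotypes on azide, against 1 by DESeq2 and 1 at an unadjusted p under 0.05 on all libraries.

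The adult-stage collagens *col-7*, *col-19* and *col-62* moved against the furrow set. They summed to 209 to 324 CPM in wild type on water, 2555 to 3045 on azide, 176 to 275 in the deletion on water and 35.8 to 172 on azide. All 3 were called higher on azide in wild type (log2 fold changes 2.90, 3.45 and 2.66, edgeR adjusted p from 0.000705 to 0.000925) and all 3 lower in the deletion on azide than in wild type (-5.53, -4.97 and -4.94, edgeR adjusted p from 0.000115 to 0.000433). The shares over all genes were 27.5% higher on azide in wild type and 18.7% lower between genotypes on azide. The 6 vitellogenins, yolk proteins made by the adult intestine, ran alongside, at 4216 to 6191 CPM in wild type on water, 34570 to 44405 on azide, 2226 to 2548 in the deletion on water and 238 to 2130 on azide, and none of these marker genes was at 0 in any library. The wild-type azide larvae therefore had the lowest furrow collagens and the highest adult collagens and yolk transcripts of the 4 groups, and the part of developmental stage in the furrow result was not tested. The basement membrane collagens *emb-9* and *let-2*, made outside the cuticle, were not called in any of the 5 comparisons by edgeR or DESeq2, although both had an unadjusted p under 0.05 on water (log2 fold changes 0.44 and 0.46). In the other 4 comparisons 0 of these 2 had one.

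Genes that act on collagens after translation had a smaller median change. Of 11 in the list, 8 were lower on azide in wild type (median -0.80), led by the prolyl 4-hydroxylase subunit gene *dpy-18* (-2.03, edgeR adjusted p = 3.38e-07), the thioredoxin-like gene *dpy-11* (-1.99, edgeR adjusted p = 1.64e-06) and the other hydroxylase gene *phy-2* (-1.71, edgeR adjusted p = 2.96e-07). On azide 8 were higher in the deletion (median 0.58), and 3 were lower on azide in the deletion: *dpy-11* (-0.83), *dpy-18* (-0.73) and *phy-2* (-0.41, edgeR adjusted p = 0.022, kept under 16 of 21 alternatives). The difference of azide effects was called for 5 of the 11.

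Among 9 transcription factors of the epidermis and the molting cycle, 7 fell on azide in wild type, and on azide 8 were above wild type in the deletion. The shares of all genes called in these directions were 27.1% and 20.1%. The largest falls were those of *grh-1*, the Grainyhead homolog, at -2.23 (edgeR adjusted p = 5.86e-07), of *lin-42*, the Period homolog, at -2.12 (edgeR adjusted p = 1.66e-06), and of *blmp-1* at -1.74 (edgeR adjusted p = 2.02e-07). In the deletion *nhr-23*, a nuclear receptor that drives molting, was higher on azide (0.54, edgeR adjusted p = 0.0192, kept under 15 of 21 alternatives), as was the GATA factor *elt-3* (0.56, edgeR adjusted p = 0.0129, kept under 18 of 21). *grh-1*, *blmp-1* and *lin-42* were lower there (-0.63, -0.57 and -0.54, *lin-42* kept under 9 of 21). In that comparison 12.3% of all genes were called higher and 11.6% lower.

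All 12 genes of molting and the apical matrix were lower on azide in wild type (median -2.56) and all 12 higher in the deletion on azide (median 2.13). The matching shares over all genes were 27.1% and 20.1%. In the deletion 5 were lower on azide and 2 higher, and the 5 not called included the ZP-domain matrix genes *noah-1* and *noah-2*, the lipocalin gene *lpr-3* and the protease inhibitor gene *mlt-11*, which is the course of the furrow set. *fbn-1*, a fibrillin-like matrix gene, rose from 45.3 ± 29.1 to 229 ± 73.3 CPM on azide in the deletion (SD, n = 3 in each; edgeR adjusted p = 0.00873) and *let-653*, another matrix gene, had a log2 fold change of 1.50 (edgeR adjusted p = 0.00624). The falls in the deletion were led by *mlt-10* (-1.70, edgeR adjusted p = 0.00283), *qua-1* (-1.12, edgeR adjusted p = 0.00344) and *mlt-8* (-1.08, edgeR adjusted p = 9.64e-05). With replicate 3 of the azide-treated deletion left out, 6 were lower. On all libraries, 11.6% of all genes were called lower and 12.3% higher for azide in the deletion.

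**Figure D5:**
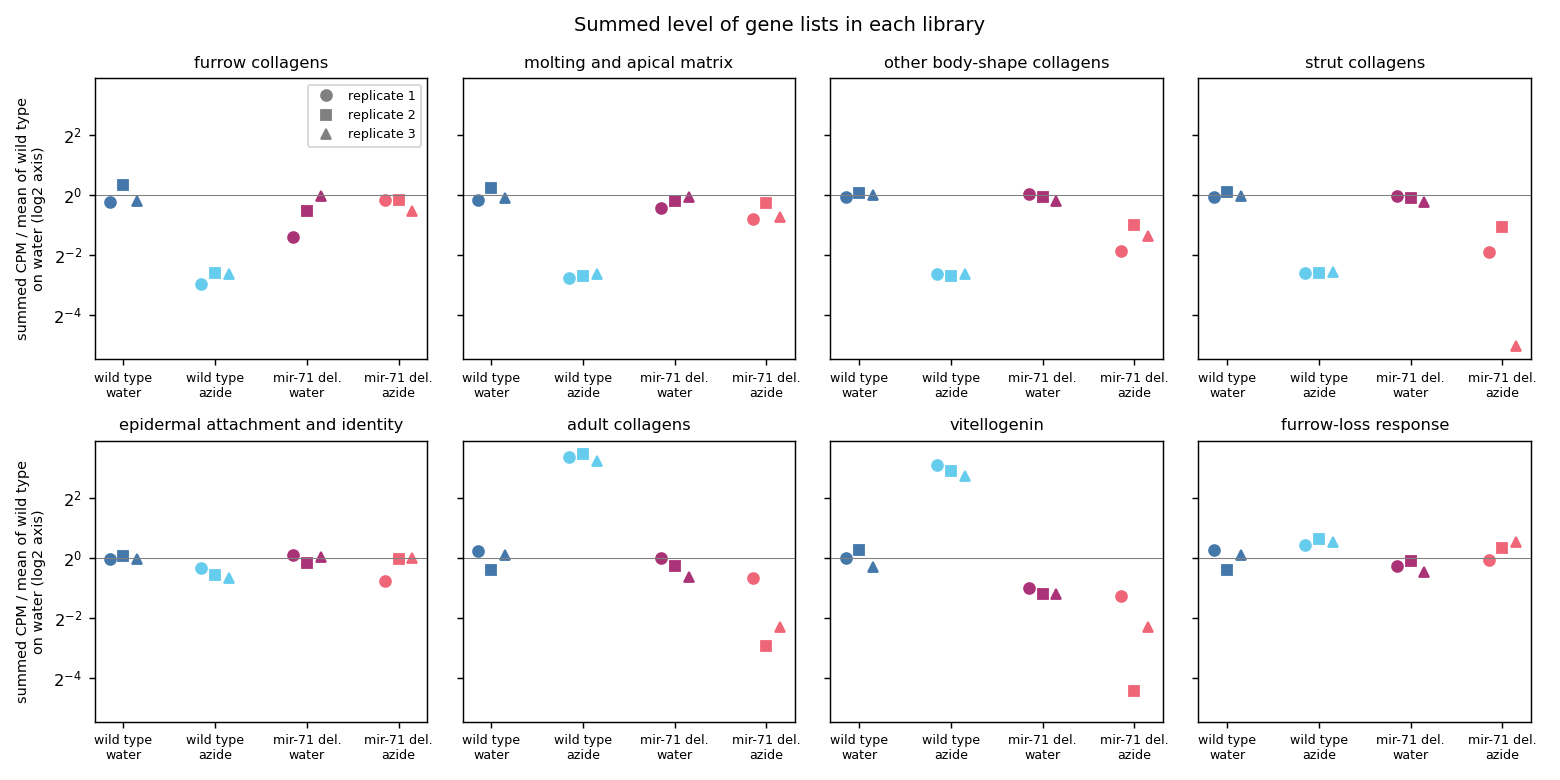
Summed CPM of 8 gene lists in each library, divided by the mean of wild type on water (log2 axis; the line marks 1), with replicates as symbols. Furrow collagens and the molting and apical matrix list lie nearer 1 in the deletion on azide than in wild type on azide. The other body-shape collagens lie lower than these lists in the deletion on azide. Adult collagens and vitellogenins rise in wild type on azide, where furrow collagens are lowest.

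Of the genes that respond when furrows are lost, none was called by edgeR between genotypes on water, with 0 by DESeq2 and 0 whose unadjusted p was under 0.05. On azide in wild type edgeR called 1 of 5 higher and DESeq2 2, where edgeR called 27.5% of all genes tested higher. The edgeR call was *gst-4*, a glutathione transferase gene of the detoxification response (15.8 ± 1.14 to 51.1 ± 1.81 CPM, SD, n = 3 in each, edgeR adjusted p = 4.19e-07). Its log2 fold change was 1.69 there and 1.65 in the deletion (edgeR adjusted p = 1.53e-06), where the furrow collagens were not called. The antimicrobial peptide gene *nlp-29* had log2 fold changes of 0.82 in wild type (edgeR adjusted p = 0.0924) and 1.23 in the deletion (edgeR adjusted p = 0.0415, kept under 11 of 21 alternatives). The glycerol synthesis gene *gpdh-1* was lower in the deletion on azide than in wild type (-0.53, edgeR adjusted p = 0.0148, kept under 17 of 21). *cnc-2* and the osmotic response gene *hmit-1.1* were not called by edgeR in any of the 5 comparisons. Between genotypes on azide, DESeq2 called 2 genes of the whole list lower and edgeR 1, where edgeR called 18.7% of all genes lower.

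Markers of epidermal attachment and identity moved unevenly. They summed to 3598 to 3843 CPM in wild type on water, 2318 to 2939 on azide, 3247 to 3903 in the deletion on water and 2173 to 3687 on azide. Of 8, 5 were lower on azide in wild type (median -0.72), led by *ifa-3* (-1.89), *eff-1*, the cell fusion gene (-1.74), and *mua-3* (-1.51, edgeR adjusted p of these from 4.22e-07 to 0.00213). The level of *ifa-3* was low, at a mean of 1.53 CPM on water and 0.40 on azide in wild type. *eff-1* and *mua-3* were higher in the deletion on azide (1.80 and 1.13, edgeR adjusted p = 1.98e-06 and 0.000304). The epidermal identity factor *lin-26* was not called in any comparison. Beside these markers, 27.1% of all genes were called lower on azide in wild type and 20.1% higher between genotypes on azide. Scaled to these 8 genes in place of TMM, the median of the furrow set for azide in wild type was -1.94, all 6 still called lower.

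Of the other tissue markers, with 6 genes each, edgeR called 3 intestinal and 4 neuronal genes lower and 3 germline genes higher on azide in wild type, where 27.1% of all genes were lower and 27.5% higher. It called no body wall muscle gene, of which 1 had an unadjusted p under 0.05 and DESeq2 called 1. Between genotypes on azide 4 neuronal genes were higher in the deletion, 3 germline genes and 1 muscle gene were lower, where 20.1% of all genes were higher and 18.7% lower. No intestinal gene was called there by edgeR, with 2 at an unadjusted p under 0.05 and 2 calls by DESeq2. Between genotypes on water 0 of 94 genes in the 14 other lists were called by edgeR, with 14 at an unadjusted p under 0.05 and 1 call by DESeq2. The part of these shifts in the furrow result was not tested.

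The genes most like the furrow set included *noah-1* and *noah-2* of the apical matrix. Of 10082 tested genes with a mean of at least 5 CPM outside the set, those with the highest Pearson's r to the mean log2 CPM of the 6, over 12 libraries, were *noah-2* (0.997), *lpr-5*, *noah-1*, *lpr-4* and *Y73E7A.8* (0.995 each). *noah-2* stood at 574 ± 112 CPM in wild type on water, 86.0 ± 10.1 on azide, 381 ± 147 in the deletion on water and 480.4 ± 38.4 on azide (SD, n = 3 in each). Among the numbered *col* genes the closest were *col-128* (r = 0.986), *col-46* (0.962) and *col-99* (0.877). *col-128* fell by 2.62 on the log2 scale on azide in wild type (edgeR adjusted p = 0.000117) and was not called in the deletion (0.32, edgeR adjusted p = 0.516), at 2.4 to 25.8 CPM. By list, the median r was 0.865 for molting and the apical matrix, 0.795 for other body-shape collagens, -0.797 for adult collagens and -0.739 for vitellogenins. These correlations largely carry the 4 group means and are descriptions only.

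Other numbered collagen genes moved in both directions. Of 128 tested *col* genes known by number, 58 were lower and 37 higher on azide in wild type (median -0.86), which is 45.3% and 28.9% of them, where 27.1% of all genes tested were called lower and 27.5% higher. In the deletion, 46 were lower and 15 higher on azide (median -0.70), or 35.9% and 11.7%, beside 11.6% and 12.3% of all genes. On azide 29 were higher and 38 lower in the deletion than in wild type, or 22.7% and 29.7%, beside 20.1% and 18.7%. The difference of azide effects was called higher for 14 and lower for 22, or 10.9% and 17.2%, beside 6.67% and 3.8%.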

How the data were processed

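Whole L4 larvae in 4 groups of 3 biological replicates gave 12 poly(A) libraries. The authors trimmed reads with cutadapt 1.9.1, aligned them with HISAT2 2.0.1 to WBcel235 and counted them with HTSeq 0.6.1; whether strand was used is not stated with these methods. Deposited gene counts are unscaled, and the deposited FPKM values, made by the authors per gene size and library total, served only for shares and levels between genes. The table also holds annotation columns.

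A single edgeR 4.0.16 fit (R 4.3.3) covered the 12 libraries, with 1 mean per group, TMM scaling and edgeR's expression filter (minimum count 10, total 15), which kept 15048 of 20212 genes. Robust quasi-likelihood tests were two-sided, adjusted by Benjamini-Hochberg over these genes, threshold 0.05. Log2 CPM used a prior count of 1.

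The members and lists were chosen with earlier results of these data known. Named are all 6 members, *ppfr-1*, the 3 largest called rises and falls per list and comparison, and the 5 genes and 3 *col* genes most correlated with the members; others were named after their values were seen. Alternatives were other scalings, no low-count filter, DESeq2 1.42.0, 2-group fits, a log2 fold change of at least 1, a replicate block and leaving out each library. Sequences were not used here.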

Additional observations from a re-analysis of the deposited data

Results flagged for a closer look

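The azide effect differed between the genotypes, by edgeR's interaction test over all genes, for each furrow collagen and for several named genes of the other lists; values are the azide effect in the deletion minus that in wild type on the log2 scale. The furrow collagens stood at 2.85 for *dpy-2*, 3.16 for *dpy-3*, 2.96 for *dpy-7*, 2.97 for *dpy-8*, 2.95 for *dpy-9* and 3.07 for *dpy-10* (edgeR adjusted p from 0.000897 to 0.00668). In each of them the 3 wild-type azide libraries were below the other 9. The share of all genes with that pattern was not counted. For 2 groups at a time, 34.2% of all genes tested were lower without overlap on azide in wild type. Between genotypes on azide, 24.4% were higher without overlap in the deletion.

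In the molting and apical matrix list the values were 3.91 for *fbn-1*, 3.07 for *noah-1* and 3.07 for *noah-2*. Other genes named for their correlation with the furrow collagens stood at 2.92 for *lpr-5*, 3.01 for *lpr-4*, 3.13 for *Y73E7A.8*, 2.93 for *col-128*, 2.62 for *col-46* and 0.93 for *col-99*. Other body-shape collagens stood at 1.89 for *lon-3*, 1.80 for *rol-8* and 1.69 for *rol-6*. Collagen processing genes stood at 1.31 for *phy-2*, 1.30 for *dpy-18* and 1.15 for *dpy-11*. Transcription factors stood at 1.64 for *myrf-1*, 1.60 for *grh-1* and 1.58 for *lin-42*, and epidermal markers at 1.69 for *eff-1* and 1.27 for *mua-3*.

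Differences of the opposite sign were those of the adult collagens, -5.73 for *col-7*, -5.05 for *col-62* and -4.58 for *col-19*, of the vitellogenins, -4.08 for *vit-2*, -3.98 for *vit-6* and -3.55 for *vit-3*, and of the muscle gene *pat-10*, -0.65. *vit-3* kept its call under 6 of 20 alternatives and *pat-10* under 8 of 20.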

How the results depend on the processing

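Each furrow collagen kept its direction and its call under all alternatives for azide in wild type (log2 fold changes from -3.05 to -1.70), for the deletion on azide (2.12 to 2.69) and for the difference of azide effects (2.57 to 3.74), and stayed uncalled for the deletion on water (-1.18 to -0.18). For azide in the deletion, centring on epidermal genes called 1 of 6 higher, *dpy-10* at 1.13 (edgeR adjusted p = 0.0373), and leaving out single libraries gave 0 to 1 calls, the 1 being *dpy-3* without replicate 3 of the deletion on water. Directions reversed there when single libraries were left out. The log2 fold changes then ran from -0.12 to 0.46 for *dpy-2*, -0.25 to 0.33 for *dpy-7*, -0.038 to 0.67 for *dpy-8*, -0.10 to 0.45 for *dpy-9* and -0.070 to 0.57 for the median of the 6, the lowest without replicate 1 and the highest without replicate 3 of the deletion on water. *dpy-7* was also below 0, at -0.035, when replicate 1 of the azide-treated deletion was left out. The cause was not tested. Fits of 2 groups give no value for the difference of azide effects.

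Over all genes, centring on epidermal genes moved the median log2 fold change to 0.76 for azide in wild type, with 8179 genes higher and 1104 lower against 4138 and 4079, and to 0.57 in the deletion, with 6090 and 395 against 1856 and 1744. On azide between genotypes it gave 1242 higher and 2447 lower, and upper-quartile factors 3845 and 1834, against 3024 and 2820. On water DESeq2 called 356 higher and 312 lower against 112 and 114.

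Same-numbered replicates did not deviate together (r from -0.11 to 0.17 over 18 pairs, 2 above 0.1). With a replicate block, 6 of 6 were called for azide in wild type (median -2.74), the deletion on azide (2.45) and the difference (3.03), and 0 in the other comparisons.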
